A study of Mus musculus with 6 samples.

Results

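The genes described here carry out and restrain the mitochondrial pathway of apoptosis: the Bcl2 family members Bbc3, Bid, Bcl2l11, Bax, Bak1, Bcl2, Bcl2l1 and Mcl1, and Apaf1, which assembles the complex that activates caspases. They were chosen by name, 9 genes of 22180 tested, and each was read from the probe set with the highest mean signal among those the platform annotation gives to that gene alone. Of the 9 genes, 8 had such a probe set. Bax was not analysed here because no probe set carried its symbol. The 9 names include no caspase, so caspases are given below among the other genes of the pathway.

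RNA was taken from the vomeronasal organ (VNO), a paired tube at the base of the nose through which mice sense pheromones. There were 3 AP-2e null samples and 3 wild-type samples at postnatal day 17, each measured on 1 whole-transcript array, and the study compared the genotypes directly. The gene Tfap2e codes for the transcription factor AP-2e, which is made in the basal class of vomeronasal sensory neurons. The sources used here name neither the allele, the strain and the sex nor how many animals were pooled, and p-values refer to the spread between these samples. Values are log2 signals, and each difference is the AP-2e null mean less the wild-type mean, with standard errors (SE) and adjusted p-values from limma over all genes.

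Apoptosis through mitochondria is decided by binding between Bcl2 family proteins. BH3-only proteins sense damage or loss of trophic support, the effectors Bax and Bak open the outer mitochondrial membrane, and Bcl2, Bcl-xL and Mcl1 hold the effectors and the BH3-only proteins in check. Cytochrome c released through the opened membrane joins Apaf1 in the apoptosome, which activates caspase 9. Vomeronasal neurons die and are replaced throughout life, and much of this machinery is regulated at the level of protein binding and cleavage, which arrays do not measure.

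The promoters of 3 members are shown here because they include the member whose values did not overlap between genotypes (Bid) and a pair of BH3-only genes that hold letters of the AP-2 consensus (Bcl2l11 and Bbc3). The sequences are from RefSeq, build GRCm38.p6, 250 bases before to 50 bases after a start site, on the strand of the gene. The letters searched were GCCNNNGGC, which reads the same on both strands, and each match is in capitals.
Bid, chr6:120916775-120917074, minus strand: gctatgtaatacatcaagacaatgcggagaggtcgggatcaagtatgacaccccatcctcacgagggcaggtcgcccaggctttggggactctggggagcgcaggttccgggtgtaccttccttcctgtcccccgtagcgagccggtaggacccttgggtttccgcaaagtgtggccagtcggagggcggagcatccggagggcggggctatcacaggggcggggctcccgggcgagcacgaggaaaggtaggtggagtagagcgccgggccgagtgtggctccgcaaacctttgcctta
Bcl2l11, chr2:128125788-128126087, plus strand: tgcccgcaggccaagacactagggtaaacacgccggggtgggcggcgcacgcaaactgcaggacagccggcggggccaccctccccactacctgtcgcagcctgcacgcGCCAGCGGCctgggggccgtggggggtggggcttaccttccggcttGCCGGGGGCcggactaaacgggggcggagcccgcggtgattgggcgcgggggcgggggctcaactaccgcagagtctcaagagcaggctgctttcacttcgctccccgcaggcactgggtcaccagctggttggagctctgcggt
Bbc3, chr7:16309333-16309632, plus strand: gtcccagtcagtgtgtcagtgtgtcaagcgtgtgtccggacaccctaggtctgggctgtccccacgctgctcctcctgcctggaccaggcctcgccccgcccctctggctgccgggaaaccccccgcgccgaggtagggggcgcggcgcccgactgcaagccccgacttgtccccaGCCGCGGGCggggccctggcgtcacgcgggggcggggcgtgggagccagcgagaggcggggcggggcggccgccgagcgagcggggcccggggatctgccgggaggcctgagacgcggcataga
All 9 members had at least 1 promoter in that table, 14 promoters in all, and 4 of the members (Bbc3, Bcl2l11, Bcl2 and Apaf1) had a match in at least 1 of them. Counted by promoter, 7 of the 14 held a match, against 16.6% of the 32851 promoters of the same length, and promoters of 1 gene can overlap. Most of the 7 were promoters of Bbc3 and Bcl2l11, and overlapping promoters of Bbc3 shared a match. The share over all promoters was not matched for base composition, so no enrichment is read from these counts. The Bid promoter held none. The Bcl2l11 promoter shown held 2 matches, GCCAGCGGC and GCCGGGGGC, and the Bbc3 promoter shown held GCCGCGGGC. A second set of letters, the half-site of the p53 consensus, matched 1 of the 14 promoters, that of Bax, against 8.36% of all promoters. A match describes letters and does not show that a factor binds there.

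The arrays had quantiles matched closely, with medians of all probe sets between 4.997 and 5.079. Pairs of arrays correlated across all probe sets with r between 0.971 and 0.985. Tfap2e had lower signal on all AP-2e null arrays, at 6.03 ± 0.06 in AP-2e null VNOs and 6.71 ± 0.23 in wild-type VNOs (SD, n = 3 each), and did not pass over all genes (adjusted p = 0.431 in limma). The tissue's markers were present in both genotypes, with Omp, the marker of mature sensory neurons, at 9.70 in AP-2e null VNOs and 10.11 in wild-type VNOs. AP-2e null replicate 1 alone had high Xist, named after its values were seen (10.64, against 3.55 to 3.58 on the other arrays) and low Uty (2.57, against 6.94 to 7.62). Both genes are sex-linked, and by these values that array read as female and the other arrays as male. AP-2e null replicate 2 alone had a high cartilage list, with a mean signal of 8.19, against 5.31 to 5.82 on the other arrays. With or without each of these arrays, 0 of the 8 members passed in limma. Leaving out an array also leaves fewer samples, so that count cannot show whether these arrays matter. Differences without single arrays are given below for several members.

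The array signals of these apoptosis genes differed little between genotypes. None of the 8 measured members passed an adjusted p under 0.05 in limma, where 0.225% of all genes did, and none had an unadjusted p under 0.05, where 4.4% of all genes did. Of the 8 differences, 5 were above 0 and 3 below, and they ran from -0.18 for Bbc3 to 0.13 for Bid. Their median was 0.04, against -0.00052 over all genes, and their median size without regard to sign was 0.09 in the members and 0.09 over all genes. A difference larger in size than that of Bbc3 was seen for 22.8% of all genes.

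The 95% interval from limma, which is per gene and not adjusted for the number of genes, spanned 0 for all 8 members. The lowest bound was -0.45, for Bbc3, and the highest was 0.31, for Bcl2l11. Array signals more than 1.36-fold lower or 1.24-fold higher in AP-2e null VNOs therefore lay outside the interval of every measured member. These bounds hold for array signal, and how signal scales with the amount of RNA was not tested. In a whole organ, fewer cells of a type and less RNA per cell cannot be told apart, and a change confined to a minority of cells would be diluted by the others.

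**Figure D1:**
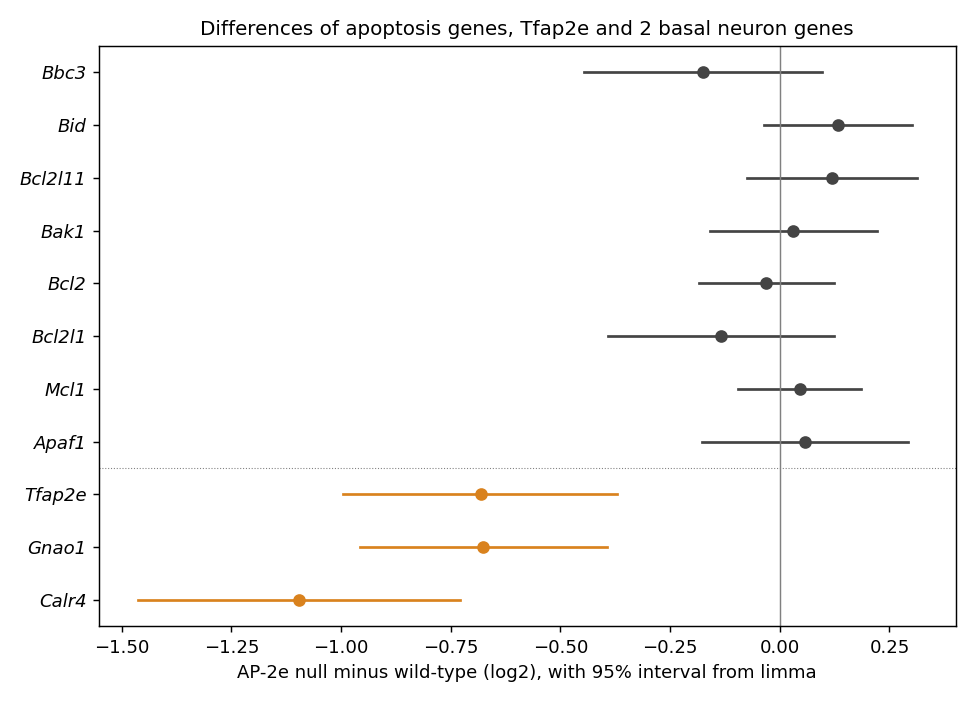
Difference in log2 signal, AP-2e null minus wild-type (x axis), for the 8 measured apoptosis genes (grey) and for Tfap2e and the basal neuron genes Gnao1 and Calr4 (orange). Points are the estimates from 3 arrays per genotype and lines the 95% intervals from limma, which span 0 for all 8 apoptosis genes and lie below 0 for Tfap2e, Gnao1 and Calr4.

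Among the BH3-only genes, Bid had the smallest p of the members. Its protein is cut by caspase 8 and so links death receptors to mitochondria. Bid had log2 signals of 5.06, 5.04 and 5.21 on AP-2e null replicates 1, 2 and 3, against 4.99, 4.99 and 4.93 on wild-type replicates 1, 2 and 3. All AP-2e null values lay above all wild-type values, the only member of which this was true, while the genotypes did not overlap in that direction for 3.42% of all genes. The means were 5.10 ± 0.10 in AP-2e null VNOs and 4.97 ± 0.04 in wild-type VNOs (SD, n = 3 each). The difference of 0.13 (SE 0.07), which is 1.10-fold, did not pass (adjusted p = 0.873 in limma), and AP-2e null replicate 3 carried much of it. Without that array it was 0.08.

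Bbc3, which codes for Puma, a BH3-only protein that p53 induces, had the largest difference of the members, and it was negative. The log2 signals were 5.09, 5.05 and 5.26 on the AP-2e null arrays, against 5.48, 5.14 and 5.31 on the wild-type arrays. The genotypes overlapped, and wild-type replicate 1 stood highest. The means were 5.13 ± 0.11 in AP-2e null VNOs and 5.31 ± 0.17 in wild-type VNOs (SD, n = 3 each), a difference of -0.18 (SE 0.11, adjusted p = 0.873 in limma). Without wild-type replicate 1 the difference was -0.09, and without wild-type replicate 2 it was -0.26.

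Bcl2l11 codes for Bim, the BH3-only protein that many cell types raise when trophic factors are withdrawn. Its log2 signals were 6.43, 6.28 and 6.25 on the AP-2e null arrays, against 6.10, 6.25 and 6.25 on the wild-type arrays. The highest value was on AP-2e null replicate 1 and the lowest on wild-type replicate 1, and the other 4 arrays lay between 6.25 and 6.28. The difference was 0.12 (SE 0.08, 95% interval -0.07 to 0.31, adjusted p = 0.873 in limma). It was 0.06 without AP-2e null replicate 1 and 0.07 without wild-type replicate 1, so the ends of the range were set by single arrays.

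**Figure D2:**
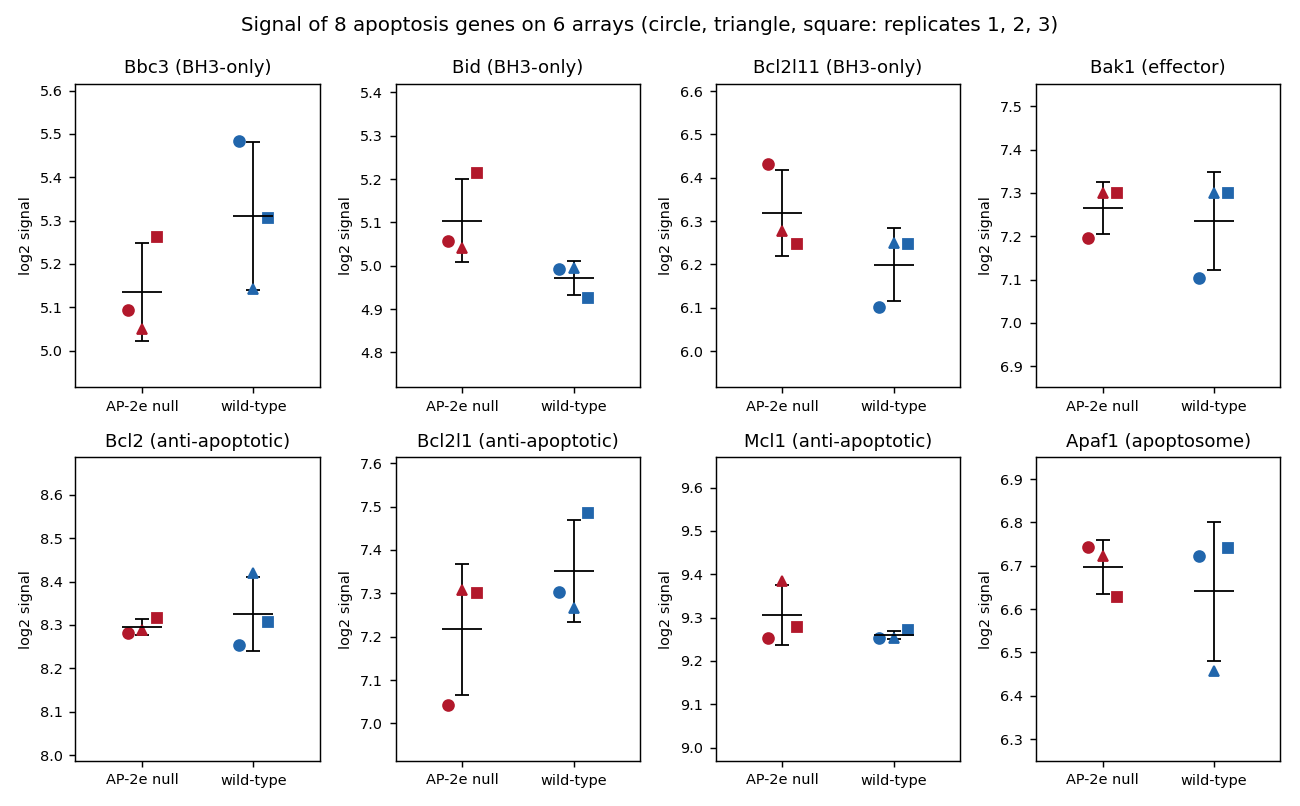
Log2 signal (y axis, each panel spanning the same width) of the 8 measured apoptosis genes on the 3 AP-2e null arrays (red, left) and the 3 wild-type arrays (blue, right). Marker shapes give the replicate number, horizontal lines the mean and bars the SD over 3 arrays. The genotypes overlap in every panel except that of Bid, where all AP-2e null values lie above 4.99.

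Of the effectors, Bak1 was measured and Bax was not. Bak1, which codes for the effector that resides in the mitochondrial outer membrane, had log2 signals of 7.20, 7.30 and 7.30 on the AP-2e null arrays, against 7.10, 7.30 and 7.30 on the wild-type arrays. The same deposited value stood on 4 of the 6 arrays, and replicate 1 of each genotype lay below it. Such ties are common in this table, where 46.4% of genes had 6 different values, and they make a gene's spread look smaller. The difference was 0.03 (SE 0.08, adjusted p = 0.944 in limma). Centring each array on its median, which lowered the members' differences by about the same amount, gave -0.004 for Bak1.

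The anti-apoptotic members were Bcl2, Bcl2l1 and Mcl1. Bcl2, the founding member of the family, had log2 signals of 8.28, 8.29 and 8.32 on the AP-2e null arrays, against 8.25, 8.42 and 8.31 on the wild-type arrays. The AP-2e null values lay inside the wild-type range. The difference was -0.03 (SE 0.06, 95% interval -0.18 to 0.12, adjusted p = 0.930 in limma). A second Bcl2 probe set was dim, at 3.58 ± 0.09 in AP-2e null VNOs and 3.65 ± 0.02 in wild-type VNOs (SD, n = 3 each), near the lower quartile of all probe sets, 3.62.

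Bcl2l1 codes for Bcl-xL, an anti-apoptotic protein abundant in postmitotic neurons. Its log2 signals were 7.04, 7.31 and 7.30 on the AP-2e null arrays, against 7.30, 7.27 and 7.49 on the wild-type arrays. AP-2e null replicate 1 was the lowest and wild-type replicate 3 the highest, and the remaining 4 arrays lay within 7.27 to 7.31. The difference was -0.13 (SE 0.10, adjusted p = 0.873 in limma), and it was -0.05 without AP-2e null replicate 1 and -0.07 without wild-type replicate 3.

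Mcl1, a short-lived anti-apoptotic protein whose level follows its synthesis closely, had log2 signals of 9.25, 9.38 and 9.28 on the AP-2e null arrays, against 9.25, 9.25 and 9.27 on the wild-type arrays. The wild-type arrays lay close together, and AP-2e null replicate 2 stood above the rest. The difference was 0.05 (SE 0.06, 95% interval -0.09 to 0.19, adjusted p = 0.888 in limma), and it was 0.01 without AP-2e null replicate 2. A second, dimmer Mcl1 probe set varied more, at 4.46 ± 0.64 in AP-2e null VNOs and 4.39 ± 0.31 in wild-type VNOs (SD, n = 3 each), and gave a difference of 0.07 (SE 0.35).

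Apaf1, the scaffold of the apoptosome, had log2 signals of 6.74, 6.72 and 6.63 on the AP-2e null arrays, against 6.72, 6.46 and 6.74 on the wild-type arrays. Wild-type replicate 2 was the lowest, and the other arrays lay within 6.63 to 6.74. The difference was 0.06 (SE 0.09, adjusted p = 0.913 in limma), and it was -0.03 without wild-type replicate 2.

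The balance of the groups also overlapped between genotypes. It was taken per array as the mean of the 4 measured BH3-only and effector members minus the mean of the 3 anti-apoptotic members, relative to the wild-type mean. On the log2 scale it was 0.14, -0.03 and 0.09 on AP-2e null replicates 1, 2 and 3, against 0.03, -0.01 and -0.03 on wild-type replicates 1, 2 and 3. The AP-2e null arrays held both the highest value and one at the wild-type low end, and their mean was 0.07 higher. No p is given for this score.

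By Pearson's r over the 6 arrays, the genes most like Bid were Hapln3 (r = 0.984), Mta1 (r = 0.983) and Olfr584 (r = 0.982). These were the highest of 18608 genes compared, of which 138 had r above 0.9, and the arrays share 1 normalization. Their own differences were 0.15, 0.07 and 0.13, and all had an adjusted p of 0.873 in limma. The correlation kept the difference between genotypes, so the direction of these differences follows from how the genes were picked.

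No other measured gene of the pathway passed either. Over 84 genes of 10 apoptosis lists, members included, 73 were measured and 0 passed in limma, with 38 higher and 35 lower. At an unadjusted p under 0.05 there were 2, Eda2r and Naip5, where 4.4% of all genes reached it. The genotypes did not overlap for 6 of the 73 genes (Bid, Htra2 and Eda2r above, Bok, Naip5 and Trp73 below), against 7.06% of all genes. The median difference was 0.01, between -0.42 for Dnase1 and 0.32 for Tnfrsf10b.

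Among the Bcl2 relatives outside the members, the largest difference was that of Bok, which codes for an effector-like protein. Bok had log2 signals of 7.23, 6.95 and 7.08 on the AP-2e null arrays, against 7.27, 7.27 and 7.71 on the wild-type arrays. All AP-2e null values were below the wild-type ones by a narrow margin, and wild-type replicate 3 stood high. The difference was -0.33 (SE 0.15, adjusted p = 0.873 in limma), and -0.18 without wild-type replicate 3. The BH3-only genes Bmf, Bik and Bad differed by 0.09, -0.04 and -0.02. The anti-apoptotic Bcl2l10, Bcl2a1a and Bcl2l2 differed by -0.09, 0.06 and -0.01, where near-identical Bcl2a1 copies can share probes. The Bcl2-like genes Bcl2l13, Bcl2l14 and Bcl2l15 differed by 0.08, 0.03 and -0.05. None of these passed in limma.

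Of 10 caspase genes, 8 were measured and 0 passed in limma, with 5 higher and 3 lower and a median difference of 0.04. Casp9, which codes for the caspase that the apoptosome activates, had log2 signals of 6.68, 6.68 and 6.68 on the AP-2e null arrays, against 6.50, 6.48 and 6.92 on the wild-type arrays, and is named here after its values were seen. The AP-2e null values lay inside the wild-type range, and the difference was 0.05 (SE 0.13). The initiator of the death receptor pathway, Casp8, differed by 0.18 (SE 0.11), the inflammatory Casp4 by -0.28 (SE 0.19) and Casp12 by 0.08 (SE 0.09). Single arrays moved these values. Without AP-2e null replicate 2 the difference of Casp8 was smaller, at 0.08. Without wild-type replicate 3 that of Casp12 was smaller, at 0.01, and that of Casp4 was larger in size, at -0.49.

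Partners of Apaf1 and other proteins of the mitochondrial intermembrane space showed the same. Of 6 genes, 0 passed in limma, and 3 were higher and 3 lower. Htra2, which codes for a protease that antagonises inhibitors of apoptosis after release, had log2 signals of 7.64, 7.62 and 7.60 on the AP-2e null arrays, against 7.42, 7.33 and 7.56 on the wild-type arrays. The genotypes did not overlap, and the difference was 0.18 (SE 0.07, adjusted p = 0.873 in limma). Cyct, the testis form of cytochrome c, differed by 0.24 from a dim signal of 3.37 in AP-2e null VNOs and 3.13 in wild-type VNOs, under the lower quartile of all probe sets. Endog differed by -0.09.

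Of 9 measured inhibitors of apoptosis, a family that includes direct inhibitors of caspases, 8 were higher and 1 was lower. Their median was 0.09, and 0 passed in limma. Over all genes 49.7% were higher, and no trend of the family is read from this count. The lower gene was Naip5, better known as a sensor of bacterial flagellin. Naip5 had log2 signals of 4.51, 4.47 and 4.87 on the AP-2e null arrays, against 5.05, 4.88 and 4.94 on the wild-type arrays. The genotypes came close without overlapping, and the difference was -0.34 (SE 0.12, adjusted p = 0.873 in limma). Birc3 differed by 0.16 and Xiap by 0.09. Naip copies are near-identical, so the value of Naip5 is uncertain, and so are those of Naip2 and Naip6, which were among the higher genes.

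For the death receptor pathway, 10 genes were measured and 0 passed in limma, 4 of them higher and 6 lower. Fasl, the ligand of Fas, differed by 0.29 (SE 0.12) from signals near the lower quartile, 3.73 in AP-2e null VNOs and 3.45 in wild-type VNOs. Tnfrsf10b differed by 0.32 (SE 0.19), and its highest value, 6.36, was on AP-2e null replicate 2, without which the difference was 0.12. Fas itself differed by -0.15.

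Genes of the p53 axis were measured because p53 induces Bbc3. Of 13 genes, 4 were higher and 9 lower, where 49.7% of all genes were higher. Their median was -0.14, and 0 passed in limma. Cdkn1a, which codes for the cell cycle inhibitor p21, had log2 signals of 10.23, 10.37 and 10.55 on the AP-2e null arrays, against 10.47, 10.67 and 10.71 on the wild-type arrays. The genotypes overlapped, and the difference was -0.23 (SE 0.11, adjusted p = 0.873 in limma). Trp73, a relative of p53, differed by -0.19 (SE 0.09). Eda2r, a receptor gene that p53 induces, differed by 0.25 (SE 0.09, adjusted p = 0.873 in limma) from signals close to the lower quartile, 3.94 in AP-2e null VNOs and 3.69 in wild-type VNOs.

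Genes of DNA fragmentation, the last step of apoptosis, were 6, of which 3 were higher and 3 lower and 0 passed in limma. Dnase1 differed by -0.42 (SE 0.22), with wild-type replicate 3 standing apart at 5.39, and by -0.19 without that array. Dffa and Dffb, which code for the inhibitor and the nuclease of the caspase-activated DNase, differed by -0.10 and 0.16, and the difference of Dffb was 0.00 without wild-type replicate 3.

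**Figure D3:**
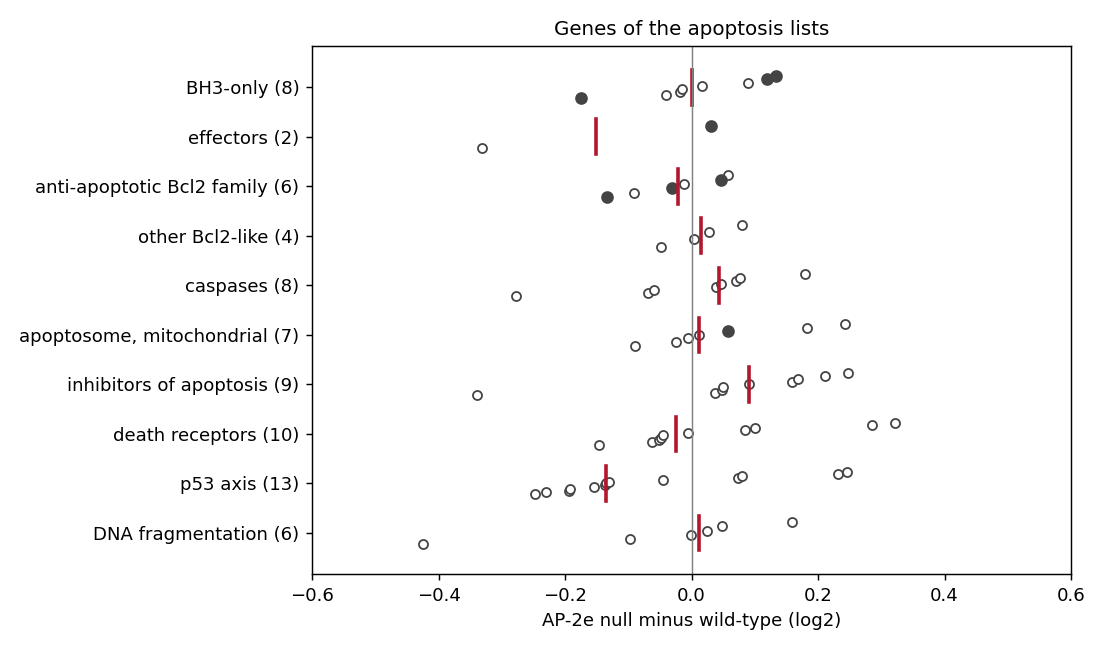
Difference in log2 signal, AP-2e null minus wild-type (x axis), for each measured gene of 10 apoptosis lists (rows, with the number of genes in brackets). Filled points are the 8 members and open points other genes, and red bars are the medians of the lists. The differences lie between -0.42 and 0.32, and no gene passed in limma.

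No gene of any cell type marker list passed over all genes, but several lists differed by more than the apoptosis genes. All 4 basal neuron markers (Calr4, Gnao1 and, named after their values were seen, Robo2 and Kirrel3) were lower on every AP-2e null array, and the mean of that list ranged from 8.76 to 8.85 on AP-2e null arrays and from 9.37 to 9.76 on wild-type arrays. In limma all 4 reached an unadjusted p under 0.05, where 4.4% of all genes did. The genotypes did not overlap, in either direction, for 7.06% of all genes. The list was chosen with earlier results of these data known, so these counts are not independent support. The mature neuron list mean was also lower, at 8.33 to 8.42 on AP-2e null arrays and 8.48 to 8.66 on wild-type arrays. Of its 5 genes, 4 were lower and 1 was higher. Omp and Ano2 differed by -0.41 and -0.40, and Cnga4, Trpc2 and Ano1 by -0.105, -0.04 and 0.06. The apical neuron list mean was higher, at 9.20 to 9.26 on AP-2e null arrays and 9.03 to 9.19 on wild-type arrays. Of its 6 genes, 4 were higher and 2 lower. Gng2 and Meis2 differed by 0.36 and 0.26, Gnai2 and Ncam2 by 0.11 and 0.08, and Nrp2 and Pde4a by -0.06 and -0.03. Genes of both lists other than Omp, Ano2, Gng2 and Meis2 are named after their values were seen. The multiciliated list (8.16 to 8.37 on AP-2e null arrays and 8.23 to 8.87 on wild-type arrays) and the skeletal muscle list (4.86 to 5.31 on AP-2e null arrays and 5.14 to 6.06 on wild-type arrays) overlapped, with lower means in AP-2e null VNOs. The 8 members together had a mean signal from 6.89 to 6.94 on AP-2e null arrays and from 6.89 to 6.95 on wild-type arrays. Macrophages clear dying cells, and 8 of their marker genes ranged as a list from 7.27 to 7.36 on AP-2e null arrays and from 7.19 to 7.36 on wild-type arrays. Of these, Csf1r, a receptor of the macrophage lineage, differed by 0.16 (SE 0.07) and C1qa, a complement subunit, by -0.10 (SE 0.08). The 7 progenitor and immature neuron genes ranged from 7.46 to 7.52 on AP-2e null arrays and from 7.21 to 7.59 on wild-type arrays, so these lists overlapped between genotypes. The neutrophil list ranged from 8.41 to 8.71 on AP-2e null arrays and from 7.66 to 8.59 on wild-type arrays, and its 7 genes had a median difference of 0.56, which was 0.01 without wild-type replicate 3. The part of these cell types in the values of the members was not tested.

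**Figure D4:**
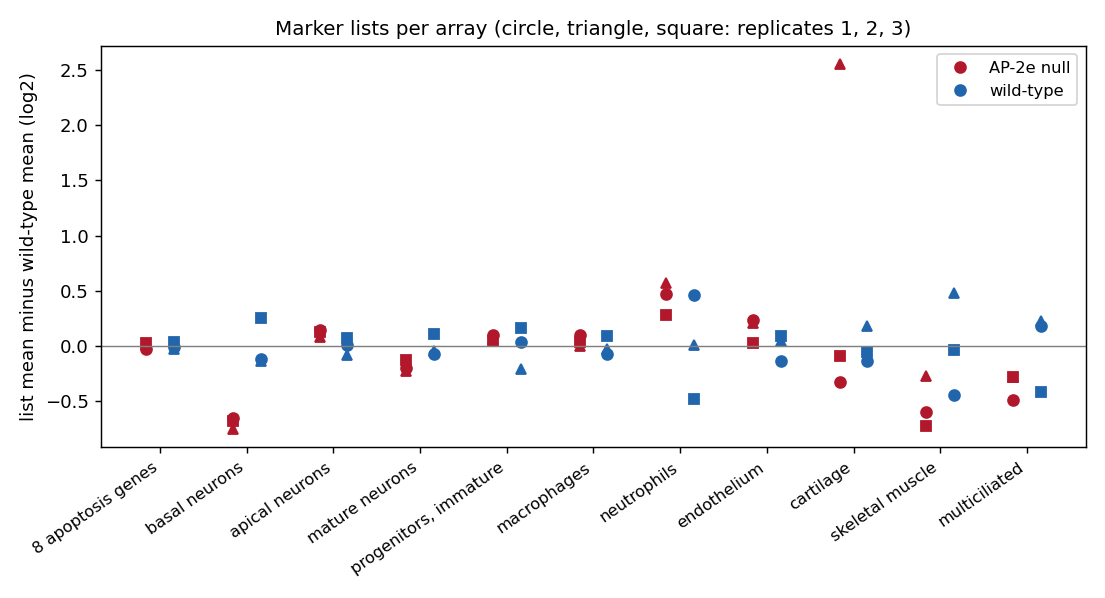
Mean log2 signal of each list on each array minus the list's mean over the wild-type arrays (y axis), for the 8 apoptosis genes and 10 lists of cell type markers (x axis), AP-2e null in red and wild-type in blue, with marker shapes giving the replicate number. The 8 apoptosis genes stay close to 0 on every array. On all AP-2e null arrays the lists of basal and mature neurons, skeletal muscle and multiciliated cells lie below 0. The lists of apical neurons, progenitors and immature neurons, macrophages, neutrophils and endothelium lie above 0 on all of those arrays. The cartilage list is high on AP-2e null replicate 2 alone.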

How the data were processed

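RNA of 6 VNO samples was measured on 1 array each. The deposited table holds log2 signals per probe set that the authors made with RMA and the Transcriptome Analysis Console, per the submitters' processing notes, with versions and genome build not given in the sources used here. RMA matches quantiles between arrays, so a shift shared by most genes would not be seen. The platform annotation named 1 gene for 23521 of 41345 probe sets, and the highest-mean probe set per gene left 22180 genes, with no filter on dim signal. A linear model of genotype alone was fitted to every gene in limma (version 3.58.1, under R 4.3.3) with moderated variances, and the p-values, for both directions, were adjusted by Benjamini-Hochberg over all genes with a threshold of 0.05. The fit was tested on simulated data with changes larger than the difference of any member, so that test does not bear on changes of the members' size. The number of arrays limits the precision.

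The members, the lists and the rule for named genes were chosen with earlier results of these data known. The rule took all members, Tfap2e, up to 3 further genes of each apoptosis list and up to 2 of each marker list with the smallest p, and the 3 genes most like the member with the smallest p. Alternatives were trend and robust moderation, averaged or single probe sets, leaving out the dimmest 30%, centring on medians, a repeat of the quantile step, array weights, a block for the replicate number, and leaving out each array. Leaving out arrays for marker lists and for genes other than members was chosen after seeing the data. Figures used matplotlib 3.10.9 (Python 3.11.15).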

Additional observations from a re-analysis of the deposited data

How the results depend on the processing

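In 14 alternative fits, the 8 measured members had 112 differences in all. These lay between -0.26 and 0.16, and the smallest adjusted p in limma was 0.779. The number of members past the threshold was 0 in every refit, and so was the number of apoptosis list genes. Trend and robust moderation, single probe sets, leaving out the dimmest genes and the replicate block left every member's difference unchanged by construction. Averaging probe sets could change only Bcl2 and Mcl1. The 112 are therefore not separate checks of the sign. The sign turned in 4 of the 112: Bak1 with median centring (-0.004) and without wild-type replicate 1 (-0.034), Bcl2 without wild-type replicate 2 (0.016) and Apaf1 without wild-type replicate 2 (-0.035). The cause was not tested. Over the single arrays left out, the differences ranged from -0.034 to 0.065 for Bak1, from -0.067 to 0.016 for Bcl2 and from -0.035 to 0.108 for Apaf1. Over all genes, 50 passed with all arrays, between 17 and 32 with an array left out, which leaves fewer samples, and 22 with the replicate block. In their deviations from the genotype means, replicates that share a number correlated weakly (r between 0.019 and 0.110 over the 3 pairs). Samples with different numbers ran from -0.193 to 0.122, and not every sample correlated best with its own number. With so few samples this check cannot exclude that the numbers pair them. The block changed no call on a member. Dim signals limit Fasl, Eda2r and Cyct, which lay near or under the lower quartile of all probe sets. Of the members, Bid and Bbc3 were the dimmest, at percentiles 36.6 and 38.9 of all genes by mean signal.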
